A study of Mus musculus with 4 samples.

Results

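The transcripts described here encode the subunits of the transcription factor NF-κB and the proteins that hold it in check, measured in naive CD4 T cells with and without the convertase gene furin. The symbols were Nfkb1, Nfkb2, Rel, Rela and Relb for the subunits, and Nfkbia, Nfkbib, Nfkbie, Nfkbiz and Tnfaip3 for the inhibitors. Nfkbiz is listed with the inhibitors by its protein family, although its protein also helps to switch on target genes. Probe sets were taken where the annotation of the whole-genome array gave one of these 10 symbols alone. This gave 19 probe sets of 9 genes, out of 45037 probe sets, controls aside, and 18193 genes named by a single symbol. Nfkb1 was not analysed here. Knockout mice carried a floxed furin gene and a Cre driven by the CD4 promoter (CD4-cre fur flox/flox), which acts in T cells, and wild-type littermates carried the floxed gene with no Cre (fur flox/flox). All were 10 to 11 weeks old, and their T cells were sorted fresh as positive for CD4 and CD62L and negative for CD44, with no further treatment. Each genotype had 2 arrays, numbered 1 and 2. Nothing in the labels says whether a number stands for 1 animal, a pool or a day, so the errors rest on the spread between these arrays, which may be technical. Standard errors (SE) and intervals come from limma, which draws each probe set's variance toward a value estimated from all tested probe sets. They are therefore not the spread of that probe set's own arrays alone.

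NF-κB works as a dimer of Rel family proteins. In a resting T cell the dimers are held in the cytoplasm by IκB proteins, and a signal from the T cell receptor, CD28 or a TNF family receptor activates the IκB kinase (IKK), which marks IκB for destruction and frees the dimer to enter the nucleus. Several of the inhibitors are themselves well known target genes of NF-κB, so the pathway contains its own negative feedback. Messenger RNA levels, the quantity measured here, show neither where the proteins are nor whether they bind DNA.

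Promoter sequences were set beside the expression values because this feedback runs through κB sites. RefSeq promoters of build GRCm38.p6 were listed for 7 of the 10 genes, and the 250 bases before the most upstream listed start were searched on both strands for the κB consensus, which is GGG, a purine, any base, A or T, a pair of pyrimidines and CC. Nfkb1, Relb and Nfkbiz were not among the 7. The consensus was found for 5 genes, Nfkb2, Rel, Nfkbia, Nfkbie and Tnfaip3, and not for Rela and Nfkbib. Of all 32851 listed promoters, 3.9% held at least 1 match and 0.493% at least 2. Nfkb2 had 3 matches, 2 of which overlap, Rel had 2 that overlap, Tnfaip3 had 2 apart from each other, and Nfkbia and Nfkbie had 1 each. Those shares count every listed start of a gene, while the matches given are of the most upstream start. The further listed starts of Nfkb2 had 1 match each and that of Tnfaip3 had 0. The sequences shown are those of the inhibitor genes with a probe set that differed by more than 0.5 (log2) between genotypes, and of Nfkb2, the subunit with the most matches. Capitals mark the consensus matches, and each sequence runs 5′ to 3′ on the gene's strand.
Nfkbia, chr12:55492648-55492897, minus strand: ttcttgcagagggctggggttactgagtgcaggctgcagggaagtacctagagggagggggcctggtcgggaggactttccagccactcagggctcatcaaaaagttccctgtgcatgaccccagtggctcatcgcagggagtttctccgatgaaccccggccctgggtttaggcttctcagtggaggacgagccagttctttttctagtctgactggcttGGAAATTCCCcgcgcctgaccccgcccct
Nfkbie, chr17:45555450-45555699, plus strand: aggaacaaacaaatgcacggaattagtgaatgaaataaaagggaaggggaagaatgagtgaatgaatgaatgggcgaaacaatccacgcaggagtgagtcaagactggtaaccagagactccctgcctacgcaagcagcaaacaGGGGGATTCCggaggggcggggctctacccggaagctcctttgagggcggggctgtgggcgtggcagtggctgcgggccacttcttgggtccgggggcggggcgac
Tnfaip3, chr10:19015411-19015660, minus strand: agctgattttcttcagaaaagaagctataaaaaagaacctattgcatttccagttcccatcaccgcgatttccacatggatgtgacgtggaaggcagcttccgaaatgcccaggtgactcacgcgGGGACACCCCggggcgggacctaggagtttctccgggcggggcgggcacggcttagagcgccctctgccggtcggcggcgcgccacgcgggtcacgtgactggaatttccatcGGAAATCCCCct
Nfkb2, chr19:46304487-46304736, plus strand: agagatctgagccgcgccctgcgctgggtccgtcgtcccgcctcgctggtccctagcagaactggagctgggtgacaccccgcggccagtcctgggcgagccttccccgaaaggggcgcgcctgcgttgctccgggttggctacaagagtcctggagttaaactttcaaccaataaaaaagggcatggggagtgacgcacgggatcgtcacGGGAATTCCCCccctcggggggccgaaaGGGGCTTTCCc
In Nfkbia the match lay 29 to 20 bases before the start, in Nfkbie 106 to 97, in Tnfaip3 125 to 116 and 12 to 3, and in Nfkb2 within the last 39 bases. A match is a stretch of letters and not a measured binding site.

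The values are MAS5 signals, a linear brightness per probe set, and differences are knockout minus wild type on the scale log2(signal + 15.3) so that differences of dim probe sets come out too small. Brightness depends on the probes as well as on the transcript, so no gene's level is ranked against another's. Arrays numbered 1 and 2 differed technically. Bacterial spike-in controls were brighter on arrays numbered 2 than on arrays numbered 1, by 6.04-fold in wild type and 5.87-fold in knockout, and the 3' to 5' ratio of the Gapdh control was 4.09 and 3.35 on arrays numbered 1 against 0.905 and 0.934 on those numbered 2. The same ratio of the actin control went the other way, at 1.23 and 1.20 on arrays numbered 1 and 1.72 and 1.77 on arrays numbered 2. The genotypes were therefore also compared within arrays numbered 1 (pair 1) and within arrays numbered 2 (pair 2). Where a difference is given without 1 of the arrays, genotype is mixed with array number. Such a value also carries the difference by array number, and is not only a sign of dependence on that array. The only Furin probe set had signals of 435.1 and 343.9 in wild type and 391.4 and 446.9 in knockout, a difference of 0.11 (SE 0.34). It was not known to lie in the deleted part, so it checks neither the deletion nor the labels.

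The largest differences in the family were in single probe sets of the inhibitor list, Nfkbiz included, and toward higher signal in the knockout. With the brightest probe set of each gene the median difference was 0.11 over the inhibitors and 0.28 over the subunits. One probe set of Nfkbiz had 2.43 and 2.28 times the wild-type signal in the pairs, and single probe sets of Nfkbia, Nfkbie and Tnfaip3 were higher by 0.67 to 0.69 (log2). The subunits Nfkb2, Relb and Rela were higher by smaller amounts in their main probe sets. No difference passed limma at a Benjamini-Hochberg adjusted p of 0.05, for any of the 19 probe sets, nor for any of the 22518 tested (0% of all tested); 145 of all tested (0.644%), and 1 of the 19, had an unadjusted p under 0.05. With array number as a block limma called 0.0266% of all tested and still 0 of the 19, of which 5 had an unadjusted p under 0.05 against 8.42% of all tested. The block together with a trended prior called 1.15% of all tested and 3 of the 19, which were 1 of Nfkbiz and 2 of Nfkbia. An exact permutation test of 2 arrays against 2 cannot give a two-sided p below 0.333.

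**Figure D1:**
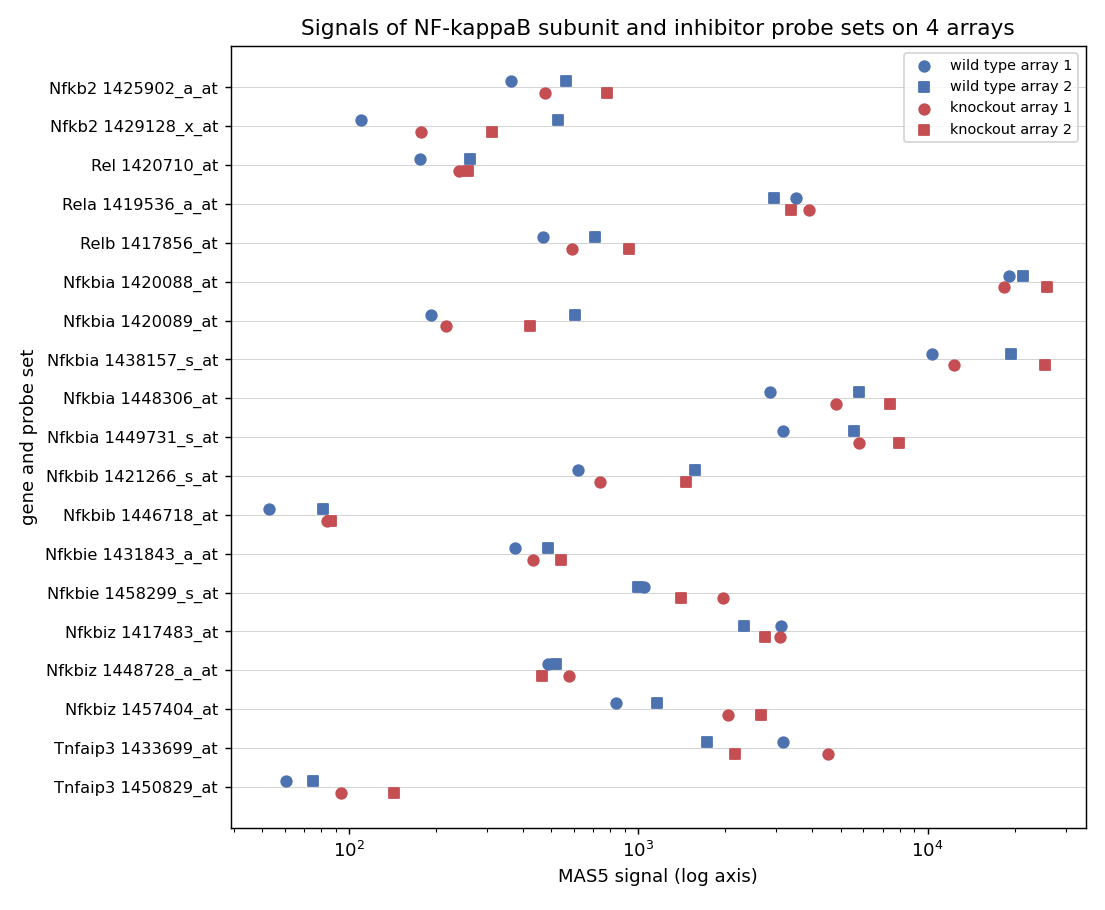
MAS5 signal (log axis) of the 19 probe sets on each array, wild type in blue and knockout in red, circles for arrays numbered 1 and squares for arrays numbered 2. Both red points lie right of both blue points for Nfkbiz 1457404_at, Nfkbia 1449731_s_at, Nfkbie 1458299_s_at, Nfkbib 1446718_at and Tnfaip3 1450829_at, and for many others the distance between circle and square exceeds that between colours.

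Rela, which encodes p65, the subunit that carries a strong activation domain, had signals of 3498.5 and 2953.1 in wild type and 3878.5 and 3360 in knockout (arrays 1 and 2). The mean was 3226 ± 386 (SD, n = 2) in wild type and 3619 ± 367 (SD, n = 2) in knockout. Knockout was above wild type within each pair, but the groups overlapped. The difference was 0.17 (SE 0.33, pairs 0.15 and 0.19), with a 95% interval from -0.70 to 1.03 that narrowed to -0.30 to 0.63 with the block. Without wild-type replicate 2 it was at 0.05, and without wild-type replicate 1 at 0.29.

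Rel, which encodes c-Rel, a subunit prominent in lymphocytes and needed for interleukin 2 induction, was at 176.5 and 262.9 in wild type and at 240.2 and 258.2 in knockout. The wild-type array numbered 1 was the lowest and the other 3 lay close together. The difference was 0.19 (SE 0.36), made up of 0.41 in pair 1 and -0.02 in pair 2, and it turned to -0.07 without wild-type replicate 1.

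Relb and Nfkb2 encode the partners of the alternative pathway, in which the Nfkb2 precursor p100 is cut to p52 and pairs with RelB. Relb was at 467.1 and 711 in wild type and 589.8 and 932.7 in knockout. In each pair knockout was above wild type, by 0.33 and 0.38, yet knockout array 1 lay below wild-type array 2. The difference was 0.36 (SE 0.42, 95% interval -0.75 to 1.46, or -0.11 to 0.82 with the block), and it fell to 0.03 without knockout replicate 2. That last value also carries the difference between arrays numbered 2 and 1, which was 0.62 for Relb.

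Nfkb2 had a pair of probe sets that disagreed. Probe set 1425902_a_at was at 363.2 and 563.2 in wild type and 475.3 and 777.9 in knockout, a difference of 0.41 (SE 0.43) with 0.37 and 0.46 in the pairs. Its pattern over the arrays followed that of Relb, with arrays numbered 2 above those numbered 1 in both genotypes. Without knockout replicate 2 it was at 0.07, and without knockout replicate 1 at 0.76. The other, 1429128_x_at, was at 109.8 and 527.1 in wild type and 177.8 and 311.3 in knockout. It was higher in knockout in pair 1 by 0.63 and lower in pair 2 by -0.73, so the difference of -0.05 (SE 0.79) averages opposite values. The suffix x marks a probe set some of whose probes may also bind other transcripts.

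Nfkbia encodes IκBα, the inhibitor that is destroyed and resynthesised in each round of activation, and it had 5 probe sets. The brightest, 1420088_at, had signals of 19109 and 21307.8 in wild type and 18346.2 and 25770.1 in knockout. Its knockout arrays were the lowest and the highest of the 4, so there was no common direction (difference 0.11, SE 0.36, pairs -0.06 and 0.27). The next, 1438157_s_at, was at 10379 and 19399 in wild type and 12321.4 and 25407.7 in knockout, a difference of 0.32 (SE 0.55, pairs 0.25 and 0.39) that turned to -0.20 without knockout replicate 2.

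Larger differences came from the Nfkbia probe sets of middle brightness. Probe set 1449731_s_at was at 3159.6 and 5564.6 in wild type and 5771.6 and 7980.8 in knockout. Both knockout arrays were above both wild-type arrays, and the ratio of signals was 1.83 in pair 1 and 1.43 in pair 2. The difference was 0.69 (SE 0.44, pairs 0.87 and 0.52), with a 95% interval of -0.45 to 1.83, or 0.19 to 1.20 with the block. The limma adjusted p was 0.527 with the block and 0.00520 once a trended prior was added to it. Without wild-type replicate 1 it was at 0.29, and without wild-type replicate 2 at 1.10. Probe set 1448306_at, at 2842.5 and 5779.7 in wild type and 4809 and 7435.8 in knockout, had a difference of 0.56 (SE 0.50, pairs 0.76 and 0.36) and overlapping groups. Its limma adjusted p was 0.575 with the block and 0.0403 once a trended prior was added to it. Without wild-type replicate 1 it was at 0.05. The dimmest probe set, 1420089_at, was at 192.4 and 606.5 in wild type and 217.1 and 424 in knockout, with opposite values of 0.16 and -0.50 in the pairs. The suffix s marks probes shared by several transcripts, so how the 5 probe sets divide among Nfkbia transcripts is not known from these files.

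Nfkbib, which encodes IκBβ, showed no common direction in its brighter probe set. This one, 1421266_s_at, was at 619.7 and 1573 in wild type and 739 and 1458.1 in knockout, so that array number separated the values and genotype did not (difference 0.07, SE 0.62, pairs 0.25 and -0.11). Probe set 1446718_at was dim, at 53.2 and 81.2 in wild type and 83.8 and 87 in knockout. Its groups did not overlap, but the gap between wild-type array 2 and knockout array 1 was small, and pair 2 differed by 0.08. Its difference of 0.31 was at 0.06 without wild-type replicate 1. Its wild-type array 1 was under the signal of 60.0 that corresponds to the filter level on mean values.

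Nfkbie encodes IκBε, an inhibitor that mainly binds dimers with p65 or c-Rel. Probe set 1458299_s_at was at 1050.6 and 999.2 in wild type and at 1961 and 1410 in knockout. The mean was 1025 ± 36.3 (SD, n = 2) in wild type and 1685 ± 389 (SD, n = 2) in knockout, and both knockout arrays were above both wild-type arrays. The difference was 0.69 (SE 0.35, pairs 0.89 and 0.49), with a 95% interval from -0.22 to 1.61, or 0.18 to 1.20 with the block. The limma adjusted p was 0.527 with the block. Without knockout replicate 1 the difference was 0.45. The dimmer probe set 1431843_a_at was at 375.2 and 489.7 in wild type and 431.8 and 539.5 in knockout, and its difference was smaller (0.17, SE 0.35, pairs 0.20 and 0.14).

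Nfkbiz encodes IκBζ, a nuclear member of the IκB family that helps to switch on a second wave of target genes. Its 3 probe sets did not behave alike. Probe set 1457404_at was at 838.6 and 1163 in wild type and at 2037 and 2656 in knockout. The mean was 1001 ± 229 (SD, n = 2) in wild type and 2346 ± 438 (SD, n = 2) in knockout. Both knockout arrays were well above both wild-type arrays, with signal ratios of 2.43 in pair 1 and 2.28 in pair 2. The difference was 1.22 (SE 0.37, pairs 1.26 and 1.18), with a 95% interval of 0.26 to 2.19, or 0.75 to 1.69 with the block. The limma adjusted p was 0.345 with the block and 5.99e-05 once a trended prior was added to it. With 1 array left out the difference ranged from 0.99 to 1.46.

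The brightest Nfkbiz probe set, 1417483_at, was at 3126.1 and 2317.5 in wild type and 3085.1 and 2737.9 in knockout. There the groups overlapped and the pairs differed by -0.02 and 0.24 (difference 0.11, SE 0.35, 95% interval with the block -0.38 to 0.60). The third, 1448728_a_at, was at 489.5 and 518.7 in wild type and 577.3 and 464.7 in knockout (difference 0.04, SE 0.33, pairs 0.23 and -0.15, 95% interval with the block -0.47 to 0.55). The block's intervals of these probe sets end below the 0.75 at which that of 1457404_at begins. Without the block the intervals overlapped, at -0.80 to 1.02 for 1417483_at and -0.83 to 0.90 for 1448728_a_at against 0.26 to 2.19. The difference between probe sets was not tested. Which part of the Nfkbiz transcript each probe set reads was not analysed here.

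Tnfaip3 encodes A20, a ubiquitin-editing enzyme that shuts off signalling upstream of IKK. Its brighter probe set, 1433699_at, was at 3154.6 and 1731.5 in wild type and 4518.8 and 2157.3 in knockout. Array number separated these values more than genotype did, and in the direction opposite to that of Nfkbia, with lower signals on arrays numbered 2. Within pairs knockout was above wild type, by 0.52 and 0.31 (difference 0.42, SE 0.54, 95% interval with the block -0.06 to 0.90). Without knockout replicate 1 the value was -0.12. The dim probe set 1450829_at was at 60.5 and 75.5 in wild type and 94.1 and 143.4 in knockout. Both knockout arrays were above both wild-type arrays, and the difference was 0.67 (SE 0.37, pairs 0.53 and 0.81). Without knockout replicate 2 it was at 0.40, and at these low signals the added 15.3 and unmeasured background weigh more.

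**Figure D2:**
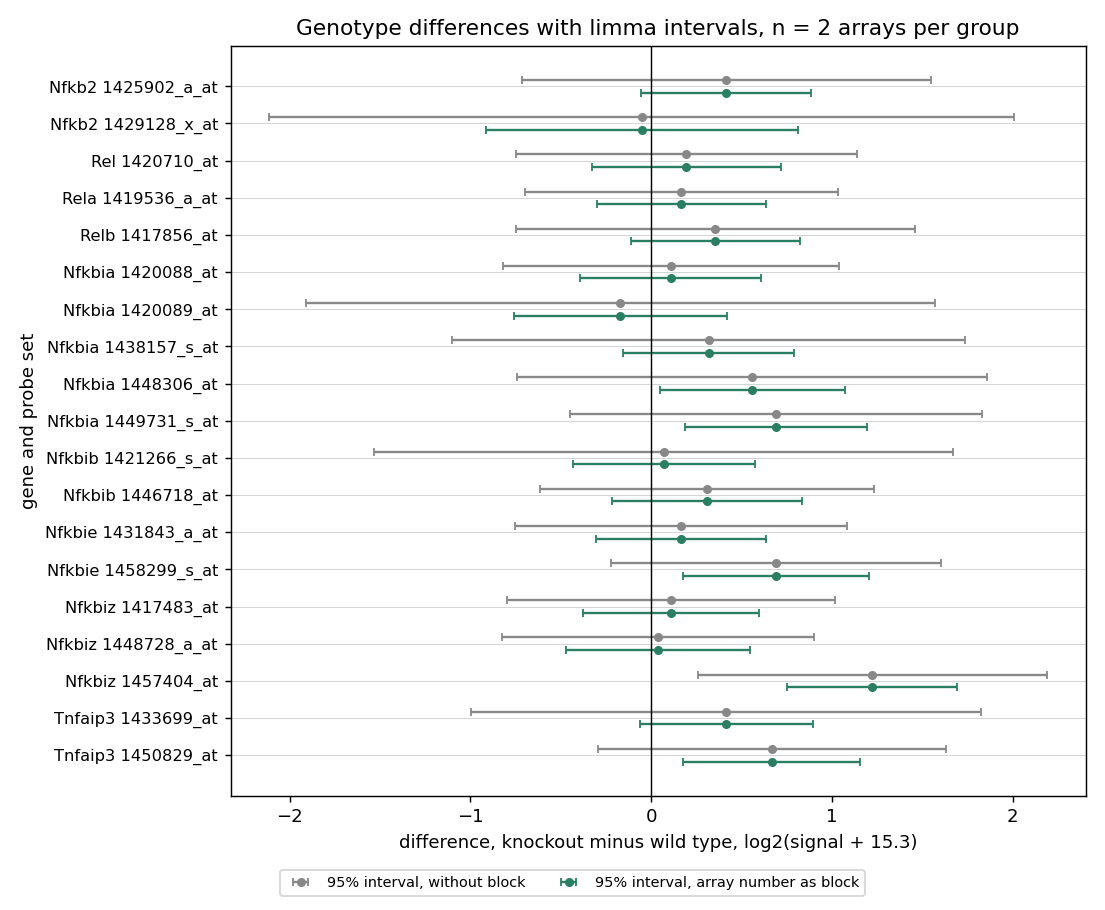
Difference of each probe set (knockout minus wild type, log2 scale) with limma's 95% interval, without a block in grey and with array number as a block in green, n = 2 arrays per group. Without the block only the interval of Nfkbiz 1457404_at, from 0.26 to 2.19, excludes 0, and with the block those of 2 Nfkbia probe sets and of 1 each of Nfkbie, Nfkbiz and Tnfaip3 do; these intervals are not adjusted for the number of tests.

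Counted together, 12 of the 19 probe sets were higher in the knockout in both pairs and 0 were lower in both, while 7 had opposite signs. Of all tested probe sets, 25.3% were higher and 30.1% lower in both pairs. Among subunits 3 of 5 probe sets were higher in both pairs, and among inhibitors 9 of 14. In 5 of the 19, all of inhibitors, both knockout arrays were above both wild-type arrays, against 7.62% of all tested, and in 0 were both below, against 9.54%. Differences above 0.5 in both pairs were found in 3 of the 19, namely 1 of Nfkbiz, 1 of Nfkbia and the dim probe set of Tnfaip3, against 1.79% of all tested. The median difference of the 19 was 0.31 (0.37 in pair 1 and 0.27 in pair 2), against -0.02 over all tested. Probe sets of 1 gene may read the same transcripts, so the 19 cannot be taken as independent of each other.

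With the brightest probe set of each gene, which for Nfkbia, Nfkbib, Nfkbiz and Tnfaip3 is not the one with the largest difference, the median over 9 genes was 0.19 (0.33 in pair 1 and 0.27 in pair 2). By role it was 0.28 over the 4 subunit genes and 0.11 over the 5 inhibitor genes. The subunits Nfkb2, Rela and Relb were higher in both pairs, whereas 3 of the inhibitors, Nfkbia, Nfkbib and Nfkbiz, had opposite signs. In all, 5 genes, Nfkb2, Rela, Relb, Nfkbie and Tnfaip3, were higher in both pairs against 27.7% of all genes. None of the 9 was lower in both, against 27.2%. Averaging each gene's probe sets in place of taking the brightest gave a median of 0.30.

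**Figure D3:**
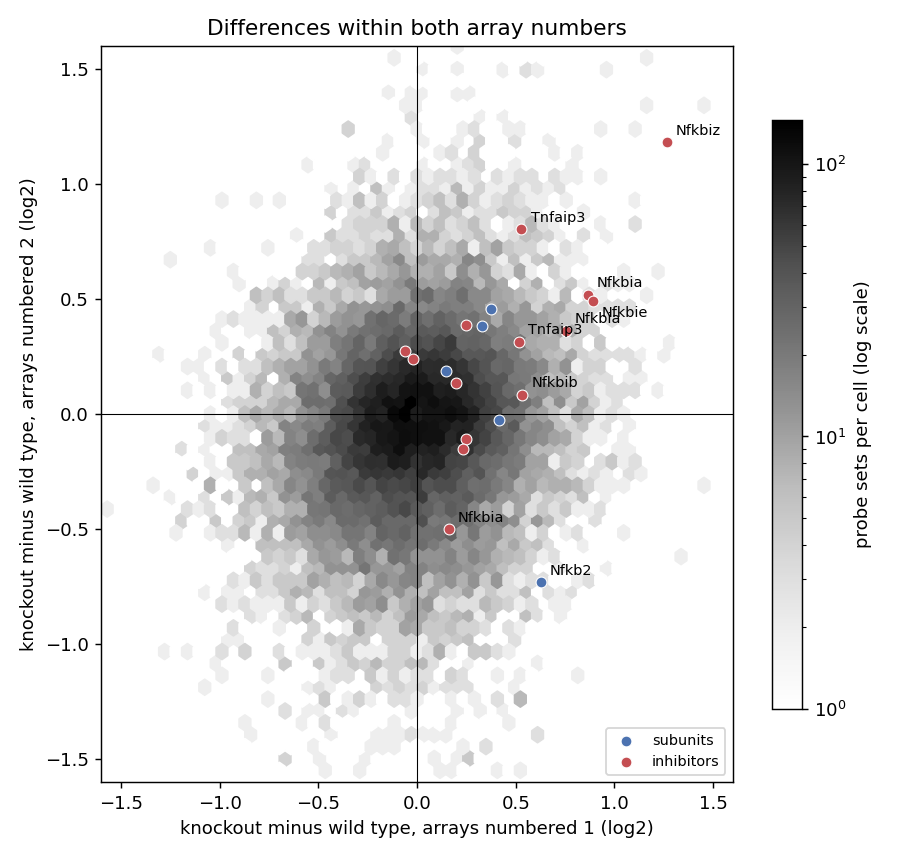
Difference between genotypes within arrays numbered 1 (horizontal) and within arrays numbered 2 (vertical), both log2, for all tested probe sets (grey cells, darker for more probe sets; 352 beyond 1.6 are not drawn) and for the subunits (blue) and inhibitors (red), the outer ones named. No coloured point lies in the lower left, 12 of 19 lie in the upper right, and Nfkbiz 1457404_at is farthest out at 1.26 and 1.18.

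Array number moved most probe sets on these arrays more than genotype did, those of the NF-κB genes included. In 14 of the 19 the difference between arrays numbered 2 and 1 was larger than that between genotypes, against 77.3% of all tested, and in 7 it passed limma at an adjusted p of 0.05 in the fit with both terms, against 34.6% of all tested. These were both Nfkb2 probe sets, 3 of Nfkbia and 1 of Nfkbib, all brighter on arrays numbered 2, and Tnfaip3 1433699_at, brighter on arrays numbered 1. The sizes ran from 0.65 for Nfkb2 1425902_a_at to 1.44 for Nfkb2 1429128_x_at, and Tnfaip3 was at -0.96. In Nfkbiz the difference by array number was 0.42 for 1457404_at (adjusted p = 0.132 in the same limma fit), smaller than its genotype difference of 1.22.

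The rest of the pathway was described by role, from lists chosen with earlier results of these data known and with 1 probe set per gene. No gene of these lists passed limma at 0.05 without the block or with it. In the upstream part there was no common direction. Of 17 tested genes of IKK and its adaptors, 7 were higher and 6 lower in both pairs (median -0.02). Map3k14, the kinase NIK that starts the alternative pathway, was higher by 0.43 (SE 0.51, pairs 0.45 and 0.40) with signals of 389.9 and 741.7 in wild type and 539 and 983 in knockout, and was at -0.03 without wild-type replicate 1. Map3k7, the kinase TAK1, differed by -0.47 (SE 0.47, pairs -0.78 and -0.16), and its partner Tab1 by -0.46 (SE 0.46, pairs -0.41 and -0.51). Map3k7 was at 0.03 without knockout replicate 1, and Tab1 at -0.07 without wild-type replicate 2 and -0.85 without wild-type replicate 1. In the arm from the antigen receptor, 1 of 7 tested genes was higher and 3 were lower in both pairs (median -0.03). There Cd28, the costimulatory receptor, was at -0.18 (SE 0.32), Prkcq, the kinase PKCθ, at -0.14 (SE 0.34) and Casp8 at 0.09 (SE 0.39).

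Receptors and ligands also had no common direction. Of 12 receptors on the array 9 passed the filter on low values, and of these 1 was higher and 3 were lower in both pairs (median 0.12). The largest was Tnfrsf13c, the BAFF receptor of B cells, at 32.8 and 108.6 in wild type and 55.3 and 354.8 in knockout, whose difference of 1.07 (SE 0.94) was 0.55 in pair 1 and 1.58 in pair 2 and turned to -0.13 without knockout replicate 2. Il18r1 and Tnfrsf1a differed by -0.17 (SE 0.42) and -0.14 (SE 0.32). Of 10 ligands on the array 7 passed the filter, and of these 1 was higher and 1 lower in both pairs (median 0.09). Tnfsf11, the ligand RANKL, was at 235.6 and 120.2 in wild type and 155.7 and 75.3 in knockout (difference -0.57, SE 0.52, pairs -0.55 and -0.58). It was at -0.11 without knockout replicate 2 and -1.03 without knockout replicate 1. Il1b was dim, at 37.1 to 139.5, and differed by 0.46 (SE 0.61).

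Known target genes outside the family included the largest differences of the wider pathway apart from Tnfrsf13c. Of 15 on the array 12 passed the filter, and of these 8 were higher and 2 lower in both pairs, with a median of 0.27 (0.22 and 0.29 in the pairs) against -0.0017 over all genes. In 6 of the 12 both knockout arrays were above both wild-type arrays, against 8.69% of all genes, and in 2, Bcl2l1 and Il2ra, both were below, against 8.0% (817 of 10211 genes). Icam1, an adhesion molecule, was at 928.9 and 690.3 in wild type and 1715 and 1562 in knockout, a difference of 1.02 (SE 0.35, pairs 0.87 and 1.16), with a limma adjusted p of 0.447 with the block and 0.00206 once a trended prior was added to it. Irf4, a transcription factor induced through the T cell receptor, was at 314.9 and 169.4 in wild type and 550.6 and 375.2 in knockout (0.93, SE 0.45, pairs 0.78 and 1.08), and was at 0.51 without wild-type replicate 2. Irf1, a regulator of interferon responses that is also induced by interferon, was at 8051 and 5903 in wild type and 10036 and 10081 in knockout (0.54, SE 0.35, pairs 0.32 and 0.77), with a limma adjusted p of 0.0243 when block and trended prior were combined. Without wild-type replicate 2 its difference was 0.32.

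Among 13 other inhibitors and regulators, 5 were higher and 3 lower in both pairs (median 0.02). Bcl3, an IκB family protein that works in the nucleus with p50 and p52 dimers, had the largest difference of these, at 626.2 and 540.7 in wild type and 946.3 and 989.2 in knockout. Its arrays did not overlap between groups, and its difference was 0.72 (SE 0.32, pairs 0.58 and 0.85; 95% interval -0.12 to 1.56, or 0.23 to 1.21 with the block). Commd1 was at 0.41 (SE 0.48, pairs 0.81 and 0.02) and Nlrc3 at -0.26 (SE 0.46, pairs -0.34 and -0.17).

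**Figure D4:**
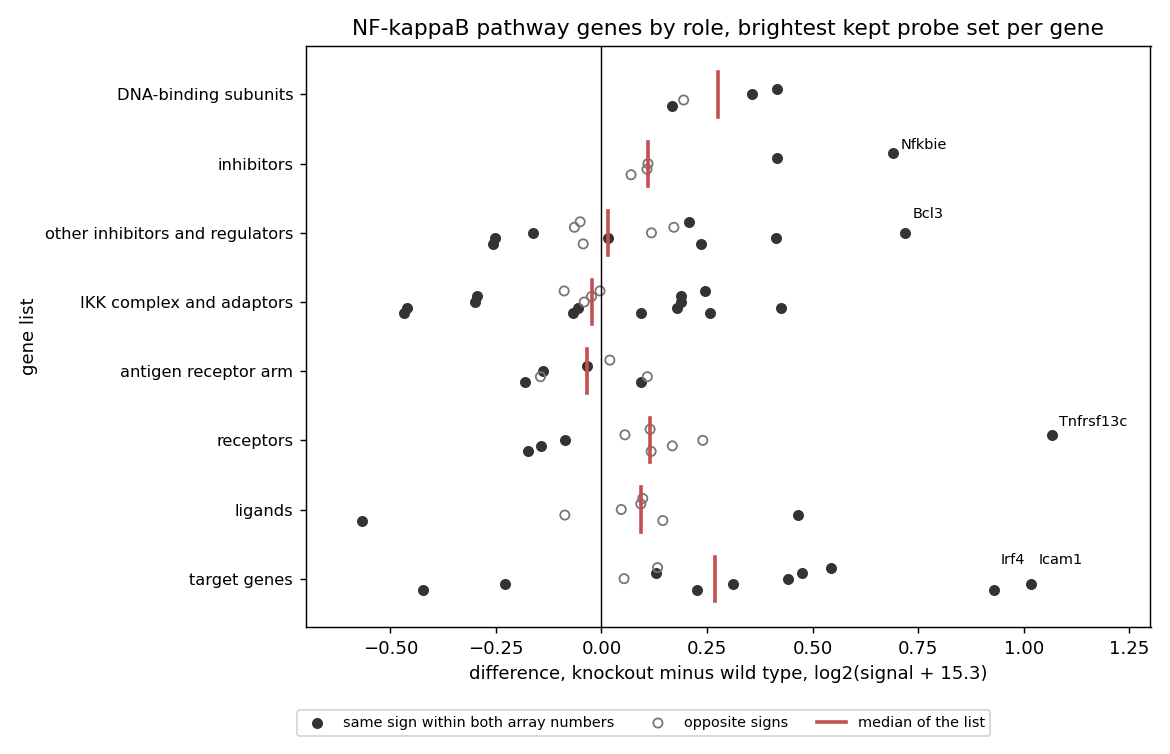
Difference of each gene (knockout minus wild type, log2 scale, brightest tested probe set) by role in the pathway; filled points have the same sign within both array numbers, open points opposite signs, and red lines are list medians. The target genes have a median of 0.27, the subunits of 0.28, the inhibitors of 0.11 and the IKK list of -0.02.

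Measured facts about the cells stand beside these differences. The naive CD4 T cell markers were bright, with Cd4 at 2974 to 3432 on the 4 arrays and Cd3e at 3161 to 7707, and their summed signal in knockout was 0.889 and 0.972 of that in wild type in the pairs. Of 7 on the array, 3 were lower in both pairs (27.2% of all genes) and 0 higher (27.7%). These were Ccr7 (-0.29), Lef1 (-0.10) and Il7r (-0.27). In Il7r both knockout arrays were below both wild-type arrays, against 8.0% of all genes. Most markers of B cells and of myeloid cells, cells which also express Relb, Nfkb2 and Nfkbia, were higher in knockout. Of 10 B cell markers on the array, dim ones included, 7 were higher in both pairs and 0 lower, and their summed signal was 957 and 3971 in wild type and 1438 and 14139 in knockout. Of 12 myeloid markers counted in the same way, 10 were higher in both pairs and 0 lower, with sums of 1304 and 4131 in wild type and 2073 and 14634 in knockout. No marker was at 0 on any array, but the lowest myeloid signal was 1.7. Without detection calls a signal above 0 does not show that a transcript was present. Ms4a1, which encodes CD20, was at 81.4 and 369.9 in wild type and 86.9 and 1248 in knockout, Cd79a at 44.5 and 174.4 against 57.6 and 473, Lyz2 at 54.6 and 174.2 against 123.3 and 935.4, and S100a8 at 32 and 292.2 against 118.7 and 3468. The markers H2-Aa and Cd74 made up most of the B cell sums, so the ratio of these sums in pair 1 rests largely on them. H2-Aa was at 390.9 and 1213 in wild type and 699.4 and 4641 in knockout. Cd74 was at 162.6 and 1156 against 327.2 and 5141. For the other tested B cell markers the signal ratio in pair 1 was 1.07 for Ms4a1, 1.29 for Cd79a, 1.46 for Cd79b, 1.23 for Blk and 0.79 for Cd22. The ratio of sums between genotypes was 1.5 in pair 1 and 3.56 in pair 2 for B cell markers, and 1.59 and 3.54 for myeloid markers. Their part in the differences of the NF-κB genes was not tested, and in bulk RNA more cells of a type and more RNA per cell cannot be told apart.

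Sums of the 5 dendritic cell markers were 1.13 and 1.09 times the wild-type sum in the pairs, and 1 of the 5 was higher and 1 lower in both pairs. The higher 1 was Itgax, which encodes CD11c and was below the filter. It was at 41.4 and 10.7 in wild type and 81 and 117.8 in knockout (difference 1.56, not tested). Zbtb46, the only dendritic cell marker above the filter, had opposite signs in the pairs (-0.21 and 0.41). Sums of the 6 CD8 T and NK cell markers on the array were 1.23 and 1.16 times the wild-type sum. Of the 5 that passed the filter, 3 were higher in both pairs (27.7% of all genes) and 0 lower (27.2%), while the 1 below the filter was lower in both. Klrd1, at 1287.6 to 1911.3, made up much of the sums and had no common direction, and neither had Cd8a, at 104.6 to 166.6. In 2 of the 5 both knockout arrays were above both wild-type arrays, against 8.69% of all genes. These were Gzma, which encodes the cytotoxic granule protease granzyme A, at 195.4 and 89.6 in wild type and 521.2 and 468.4 in knockout (difference 1.78), and the granule gene Nkg7, at 159.4 and 112.7 against 323.9 and 344.5 (1.22). With block and trended prior their limma adjusted p was 0.000154 and 0.0173. The 4 regulatory T cell markers were at 0.735 and 1.01 of the wild-type sum in the pairs. Of the 4, 3 were lower in both pairs (27.2% of all genes) and 0 higher (27.7%), with a median difference of -0.32 (-0.48 and -0.12 in the pairs). In Il2ra both knockout arrays were below both wild-type arrays, against 8.0% of all genes. Foxp3 was at 397.5 and 489.2 in wild type and 300.9 and 458.4 in knockout. Of 11 immediate early genes, which respond to handling of cells as well as to receptor signals, 8 were higher in both pairs and 0 lower, with a summed signal in knockout 2.65 and 1.90 times that of wild type. Jun was at 232.7 and 238.9 in wild type and 6632 and 5795 in knockout, and Fos at 873.5 and 374.2 against 11334 and 8045. With the block their limma adjusted p was 0.0204 and 0.0345, which places both among the 6 probe sets called of 22518 tested. The part of the immediate early genes, and of the CD8 T, NK and dendritic cell markers, in the differences of the NF-κB genes was not tested.

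Among the members' brightest probe sets Nfkbie had the largest difference of common sign, and the genes nearest to it by the Euclidean distance between centred log2 values on the 4 arrays were Parp12 (distance 0.136), Gbp8 (0.147) and Usp18 (0.160). All 3 are known as interferon-inducible genes, and their differences were 0.58, 0.83 and 0.77. With 4 arrays this likeness is a description of a shared pattern of values and no more.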

How the data were processed

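RNA of sorted naive CD4 T cells was hybridised to 4 Affymetrix mouse whole-genome arrays, 2 per genotype. The deposited values are intensities, 1 MAS5 signal per probe set on a linear scale; the name MAS5 comes per the submitters' processing notes, and its version is not given in the sources used here. Each array had a 2% trimmed mean of 500.003, from the authors' scaling. No detection calls were used, and the number of arrays limits the precision.

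Of 45101 probe sets, 64 controls were left out; of the others 34945 had 1 gene symbol, 932 several and 9160 none. Symbols were updated through Entrez identifiers in a RefSeq table (34741 matched); promoter sequences are from RefSeq, GRCm38.p6. The analysis scale was log2(signal + 15.3), the constant being the lower 25% quantile over the whole table. The 22518 probe sets with a mean above the median mean were tested, which kept all 19 of the NF-κB genes. Knockout and wild type were set against each other in limma 3.58.1 under R 4.3.3 (eBayes, two-sided, Benjamini-Hochberg over all tested, threshold 0.05). The reported fit has no block and 2 residual degrees of freedom; with array number as a block it has 1. The script was tested on simulated data.

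The members and lists were chosen with earlier results of these data known. All members are named; from each other pathway list, up to 3 genes of the largest difference with the same sign in both pairs; a fixed set of cell markers; and the 3 genes nearest in pattern to 1 member. Bcl2l1 and Il2ra among the target genes were named outside this rule, after their values were seen. The same holds for Gzma, Nkg7, Klrd1, Ccr7, Lef1, Il7r, H2-Aa, Cd74, Cd79b, Cd22, Blk and Zbtb46 among the cell markers.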

Additional observations from a re-analysis of the deposited data

How the results depend on the processing

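The 2 arrays per group limit the precision of every value. As a check of the pairing, arrays of one number deviated together from their genotype's mean (r = 0.80 over probe sets, which are not independent); the labels do not say that the numbers pair the animals. Over all tested probe sets limma called 0 as reported, 6 with the replicate block, 6 with the replicate block and quantile normalization, and 260 with the replicate block and a trended prior. In that last setting 3 member probe sets and 2 pathway genes were called (0 of both as reported). The other settings, among them pseudocounts of 1 and of the median, no filter, the 75th percentile, median centring, and a trended or robust prior without the block, called 0 members and 0 pathway genes.

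The median difference of member genes, 0.19 as reported, was 0.24 with quantile normalization, with and without the replicate block, 0.26 above the 75th percentile, 0.30 with the mean of the kept probe sets, and 0.11 to 0.46 with 1 array left out. Of 385 values of the 36 named probe sets under settings that keep all arrays, 380 kept direction and call, 0 turned and 5 became calls, all with the replicate block and a trended prior. With all arrays kept, the block, the prior and the filter leave each difference as it is, so under these settings no sign could turn. The count is therefore not a measure of how stable the directions are.

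With 1 array left out, genotype is mixed with array number, and 19 of the 36 differences then turned sign in at least 1 case. The ranges were -0.19 to 0.38 for Casp8 1424552_at, -0.13 to 0.95 for Commd1 1424121_at, -0.48 to 0.13 for Il18r1 1421628_at, -0.23 to 1.16 for Il1b 1449399_a_at, -0.025 to 0.88 for Map3k14 1434364_at, -0.97 to 0.031 for Map3k7 1455441_at, -1.11 to 1.01 for Nfkb2 1429128_x_at, -0.14 to 0.35 for Nfkbia 1420088_at, -0.96 to 0.62 for Nfkbia 1420089_at, -0.20 to 0.84 for Nfkbia 1438157_s_at, -0.59 to 0.73 for Nfkbib 1421266_s_at, -0.020 to 0.35 for Nfkbie 1431843_a_at, -0.10 to 0.32 for Nfkbiz 1417483_at, -0.11 to 0.19 for Nfkbiz 1448728_a_at, -0.67 to 0.15 for Nlrc3 1458148_at, -0.28 to 0.00054 for Prkcq 1426044_a_at, -0.074 to 0.46 for Rel 1420710_at, -0.12 to 0.95 for Tnfaip3 1433699_at and -0.13 to 2.26 for Tnfrsf13c 1419307_at.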
